A study of Mus musculus with 8 samples.

Results

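The 34 genes described here make, conjugate and move bile acids in the liver. They were chosen by name, as the enzymes of bile acid synthesis and conjugation, the hepatic bile acid and sterol transporters, and the hepatic receptor for the ileal hormone FGF15, and each matched exactly 1 of the 55401 gene IDs in the deposited tables. All 34 passed the filter on low counts, which kept 13908 genes. They were compared in liver RNA of C57BL/6J mice on day 2 after partial hepatectomy, in which most of the liver is cut away. A hairpin against Tbl1xr1 (shTbl1xr1, 4 libraries) was set against a control hairpin (shNC, 4 libraries), both delivered 4 weeks before surgery by an adeno-associated virus directed to hepatocytes, while the RNA came from whole liver. The series asked about TBL1XR1 in liver regeneration. Both groups had received virus and surgery, and no group without either was analysed here. Whether the numbered replicates are separate animals is not stated, and p-values then measure only how far these libraries scatter, which can include technical scatter.

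Bile acids are made from cholesterol in hepatocytes. The classic route starts with Cyp7a1, its rate-limiting enzyme, and Cyp8b1 decides how much cholic acid is made, while the alternative route starts with Cyp27a1 and continues through Cyp7b1. Bile acids are then conjugated to taurine or glycine, exported into the canaliculus by Abcb11 and taken back up from portal blood by Slc10a1. Bile acids returning to the liver activate the nuclear receptor FXR (Nr1h4), which represses synthesis through SHP (Nr0b2) and, by way of intestinal FGF15, through the receptor Fgfr4 with its co-receptor Klb. Tbl1xr1 is a subunit of the NCoR and SMRT corepressor complexes, which bind several nuclear receptors.

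Levels are given as CPM (the library-scaled count) of the deposited expected counts after TMM scaling. The hairpin's target was at 2.38, 2.07, 9.24 and 15.9 CPM in shTbl1xr1 1 to 4, against 27.2, 35.9, 33.7 and 34.6 CPM in shNC 1 to 4. Every shTbl1xr1 library was below every shNC library (two-sided exact permutation test, p = 0.0286, the smallest that 4 against 4 libraries allow). The shTbl1xr1 libraries differed among themselves in other ways. Libraries 1 and 2 held 10895508 and 10728583 counts with 11.3% and 14.8% from mitochondrial genes, and libraries 3 and 4 held 26976205 and 36720879 counts with 4.52% and 6.26%, against 25811763 to 27537235 counts and 4.96% to 7.34% in shNC. Libraries 1 and 2 are called the shallow pair below. Values without them, or without libraries 3 and 4, stand beside some members only. Other members moved as much or more. Slco1a4 had a log2 fold change of 0.67 without the shallow pair and -1.09 without shTbl1xr1 3 and 4.

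None of the 34 members passed the threshold of 0.05 on the adjusted p, with 0 higher and 0 lower, where 0.0503% of all genes did, 0.0431% higher and 0.00719% lower (edgeR quasi-likelihood test, Benjamini-Hochberg adjustment over 13908 genes). The smallest adjusted p of a member was 0.127 by that test. At an unadjusted p under 0.05, 7 members were higher in shTbl1xr1, where 7.90% of all genes were, and 0 were lower, where 3.71% of all genes were. They were Cyp2c70, Abcg8, Akr1d1, Abcg5, Abcb11, Cyp27a1 and Slc51b. In 3 members, Cyp2c70, Abcg8 and Akr1d1, every shTbl1xr1 library was above every shNC library, where 3.88% of all genes were, and in 0 members was every one below, where 3.37% of all genes were (7.25% in one direction or the other). Log2 fold changes were positive in 20 members and negative in 14 (50.6% of all genes were positive and 49.4% negative), with a median of 0.12 beside 0.01 over all genes tested. DESeq2 called these 3 members higher and none lower, where it called 2.12% of all genes (1.78% higher and 0.338% lower). limma-voom called no member, where it called 0.0360% of all genes, all higher. With 1 surrogate variable Abcg8 was called higher, where 0.302% of all genes were called (0.273% higher and 0.0288% lower), and with the length trend removed Abcg8 was again the member called, where 0.252% of all genes were (0.230% higher and 0.0216% lower).

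**Figure D1:**
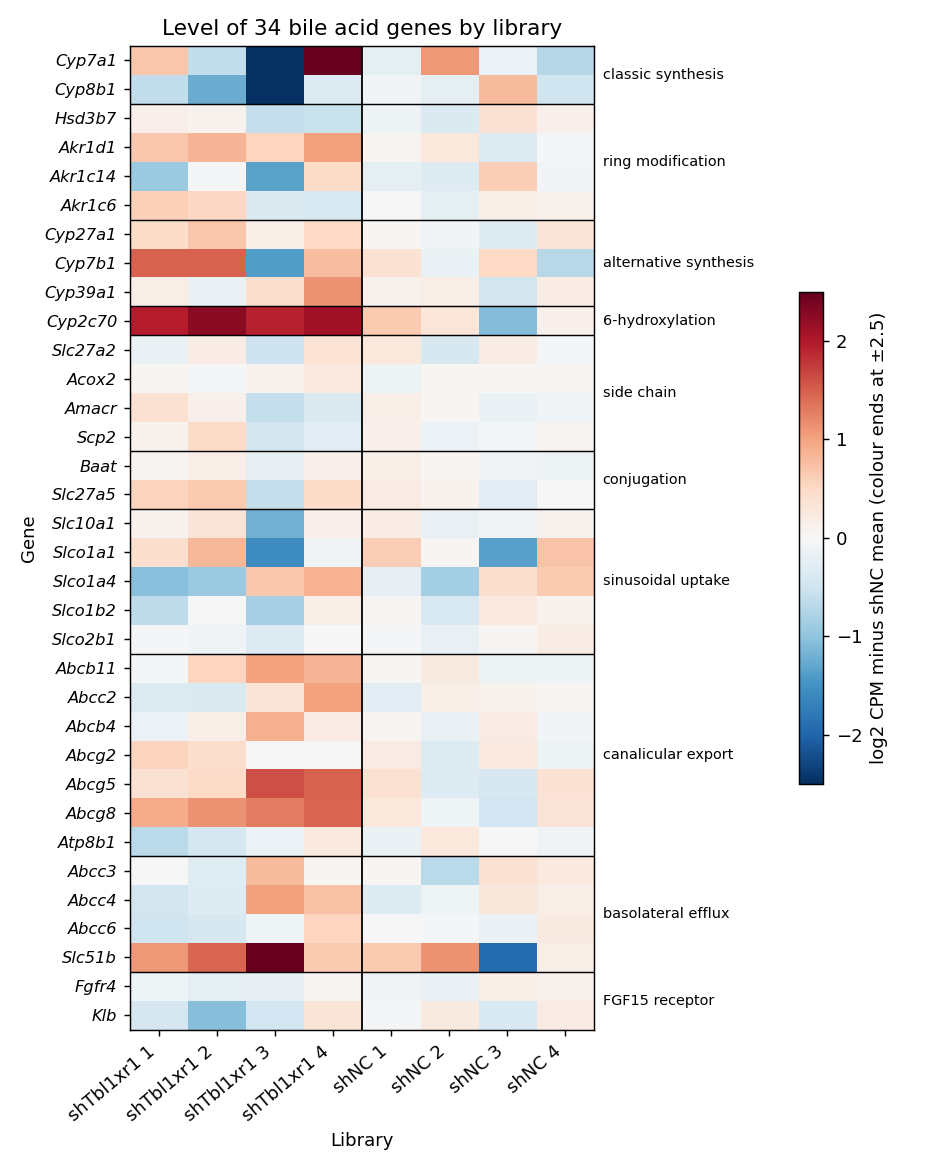
Level of each of the 34 genes (rows, grouped by role) in each library (columns), as log2 CPM minus the shNC mean, with shTbl1xr1 libraries left of the line and shNC libraries right of it. Cyp2c70, Abcg8 and Akr1d1 are above the shNC mean in all 4 shTbl1xr1 libraries, and Cyp7a1 and Cyp8b1 are at their lowest in shTbl1xr1 3.

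The upstream sequences of these 3 members are shown because they are the members whose groups did not overlap. Each window, from RefSeq on GRCm38.p6, runs from 250 bases before the annotated start to 50 bases after it, 5′ to 3′ on the gene's own strand. Cyp2c70 lies at chr19:40187237-40187536 on the minus strand, Akr1d1 at chr6:37529923-37530222 on the plus strand, and Abcg8 at chr17:84682871-84683170 on the plus strand. Capitals mark matches on either strand. The motifs searched were the nuclear receptor half-site AGGTCA, the NR5A2 motif CAAGGNCA, the C/EBP motif TTGCNNAA and the FOXA motif TGTTTAC. The core promoter box TATAAA was searched too, and the HNF4A motif CAAAGTCCA.
Cyp2c70: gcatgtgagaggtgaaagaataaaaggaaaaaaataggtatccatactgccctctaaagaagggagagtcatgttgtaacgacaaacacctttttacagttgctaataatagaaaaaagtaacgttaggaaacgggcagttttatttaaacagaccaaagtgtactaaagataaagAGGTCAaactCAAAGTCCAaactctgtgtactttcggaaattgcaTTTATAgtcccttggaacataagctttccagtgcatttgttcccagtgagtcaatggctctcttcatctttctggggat
Akr1d1: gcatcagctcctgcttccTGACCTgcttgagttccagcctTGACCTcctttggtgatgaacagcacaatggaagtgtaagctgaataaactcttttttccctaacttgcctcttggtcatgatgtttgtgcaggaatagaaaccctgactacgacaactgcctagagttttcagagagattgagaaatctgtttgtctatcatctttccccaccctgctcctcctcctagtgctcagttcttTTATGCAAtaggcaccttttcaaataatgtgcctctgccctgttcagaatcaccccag
Abcg8: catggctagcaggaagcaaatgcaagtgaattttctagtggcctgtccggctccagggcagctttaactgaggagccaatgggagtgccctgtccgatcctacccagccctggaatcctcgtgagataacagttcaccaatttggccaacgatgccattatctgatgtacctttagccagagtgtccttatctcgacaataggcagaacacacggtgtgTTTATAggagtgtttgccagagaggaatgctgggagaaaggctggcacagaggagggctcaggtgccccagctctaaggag
The Cyp2c70 window held 1 half-site, 1 HNF4A match and 1 TATAAA match. The Akr1d1 window held 2 half-sites and 1 C/EBP match, and the Abcg8 window 1 TATAAA match. These TATAAA matches read on the strand opposite to the gene. The HNF4A letters were added to the search after the Cyp2c70 window had been read, so that match was chosen and its share is not comparable with the others. Over the 25 members with a window, AGGTCA was found in 11 (44.0%), where 16.3% of all 32851 windows held it. TATAAA was in 9 members (36.0%) and 13.6% of all windows, TTGCNNAA in 4 (16.0%) and 10.8%, CAAGGNCA in 3 (12%) and 6.71%, TGTTTAC in 0 and 3.65%, and CAAAGTCCA in 2 (8%) and 0.475%. Several members have more than 1 window, which gives them more chances of a match than a single window has. The windows of Abcg5 and Abcg8 overlap and share the TATAAA match marked above, so it counts for both members. These matches are letters in a window and were not tested for binding.

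Among the synthesis enzymes, Cyp2c70 stood highest relative to shNC. Cyp2c70, which in mice hydroxylates chenodeoxycholic acid at the 6 position towards muricholic acids, had 911, 1110.3, 881 and 991 CPM in shTbl1xr1 1 to 4, against 365, 288, 109 and 255 CPM in shNC 1 to 4. The groups did not overlap, and shNC 3 was the lowest library. Its mean was 3.83 times that of shNC, with a log2 fold change of 1.94 ± 0.34 (SE) and an adjusted p of 0.127 by edgeR and 2.96e-06 by DESeq2. Cyp2c70 belongs to a family of similar genes, so its share of ambiguous fragments is uncertain.

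The 4 enzymes that modify the ring had log2 fold changes of both signs, from -0.34 to 0.77. Akr1d1, the 5-beta-reductase that gives the ring its bent shape, had 139, 157, 126 and 179 CPM in shTbl1xr1, against 91.8, 104, 70 and 86.2 CPM in shNC. The groups did not overlap, and the log2 fold change was 0.77 ± 0.18 (SE), with an adjusted p of 0.241 by edgeR and 0.00330 by DESeq2. Akr1c6 and Akr1c14, aldo-keto reductases on chromosome 13, had log2 fold changes of 0.15 and -0.34. Akr1c6 was at 1216 and 1145 CPM in the shallow pair and 620.3 and 618 CPM in shTbl1xr1 3 and 4, against 675 to 886 CPM in shNC, so libraries 1 and 2 were above and libraries 3 and 4 below every shNC library. Hsd3b7, the C27 3-beta-hydroxysteroid dehydrogenase, had a log2 fold change of -0.22. In the annotation 62.4% of its exon bases also lie in a gene on the other strand and 62.0% in Gm49388, a protein-coding gene on the same strand, so its counts are uncertain with or without strand. The gene on the other strand and Gm49388 were assigned mean levels of 2.28 and 0.257 CPM, by the same division of fragments.

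The classic route was uneven across the shTbl1xr1 libraries. Cyp7a1 had 47.3, 19.1, 4.67 and 171 CPM in shTbl1xr1 1 to 4, against 25, 61.5, 26.3 and 17.8 CPM in shNC 1 to 4. The groups overlapped widely, with the highest and the lowest of the 8 libraries both in shTbl1xr1. The log2 fold change was 0.90 ± 0.87 (SE), with an adjusted p of 0.655 (edgeR, Benjamini-Hochberg). Its sign rested on shTbl1xr1 4, without which it was -0.49, and limma-voom gave -0.01. Cyp8b1, the 12-alpha-hydroxylase, had 35.3, 22.9, 0.837 and 42.9 CPM in shTbl1xr1, against 51.6, 46.5, 94.1 and 38.5 CPM in shNC. Libraries 1, 2 and 3 were below every shNC library, and shTbl1xr1 4 lay within the shNC range. The log2 fold change was -1.18 ± 0.79 (SE), with an adjusted p of 0.532 (edgeR, Benjamini-Hochberg), and it was -0.77 without shTbl1xr1 3.

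All 3 enzymes of the alternative and oxysterol route had positive log2 fold changes over the 8 libraries. Only Cyp27a1 was positive in both pairs of shTbl1xr1 libraries, at 0.32 without the shallow pair and 0.56 without shTbl1xr1 3 and 4. Cyp27a1, the mitochondrial sterol 27-hydroxylase, had 163, 193, 134 and 168 CPM in shTbl1xr1, against 122, 114, 95.2 and 149.5 CPM in shNC. Only shTbl1xr1 3 lay within the shNC range, and the log2 fold change was 0.45 ± 0.19 (SE), with an adjusted p of 0.414 (edgeR, Benjamini-Hochberg). Cyp7b1, the oxysterol 7-alpha-hydroxylase, had 572, 575, 78.5 and 352 CPM in shTbl1xr1, against 265, 186, 292 and 127 CPM in shNC. Libraries 1, 2 and 4 were above every shNC library and library 3 was below every one, with a log2 fold change of 0.86 ± 0.53 (SE) and an adjusted p of 0.503 (edgeR, Benjamini-Hochberg). Cyp7b1 was at -0.02 without the shallow pair, and at 1.40 and called without shTbl1xr1 3 and 4 (adjusted p = 0.00784, edgeR, Benjamini-Hochberg). Cyp39a1, the 24-hydroxycholesterol 7-alpha-hydroxylase, had a log2 fold change of 0.46 ± 0.28 (SE), with an adjusted p of 0.499 (edgeR, Benjamini-Hochberg). It was at 0.80 without the shallow pair and -0.02 without shTbl1xr1 3 and 4.

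**Figure D2:**
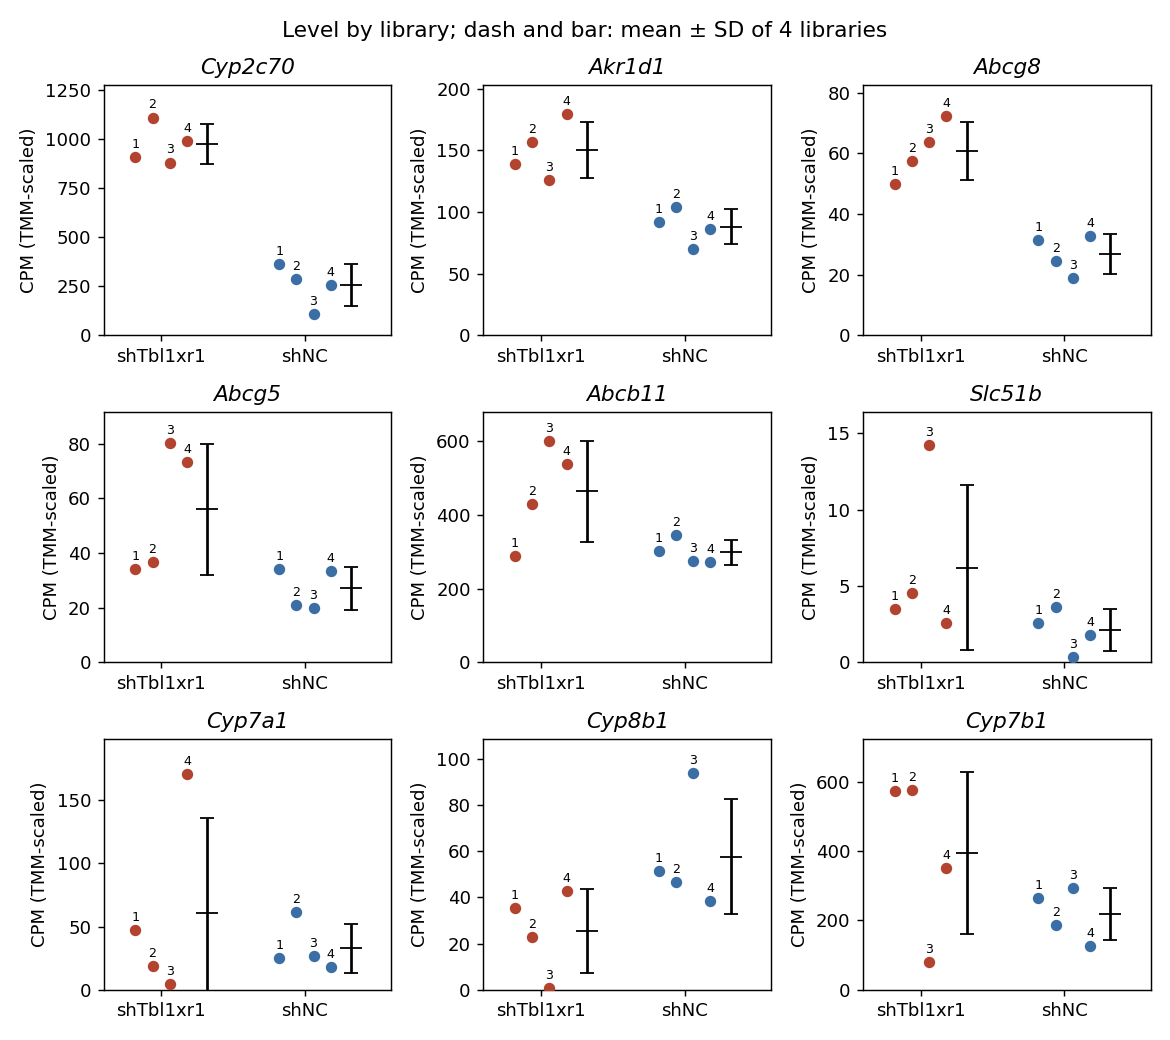
CPM of 9 members in each library (points, numbered by replicate), shTbl1xr1 left of shNC, with the mean ± SD of 4 libraries beside them (the axis starts at 0, which cuts off the lower bar of Cyp7a1). Cyp2c70, Akr1d1 and Abcg8 show no overlap between groups, while shTbl1xr1 3 and 4 stand at opposite ends for Cyp7a1.

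The side-chain and conjugation genes had log2 fold changes from -0.07 to 0.33. Baat, which joins bile acids to amino acids, had 136 ± 14.8 CPM in shTbl1xr1 and 133 ± 11.1 CPM in shNC (SD, n = 4 each), and its log2 fold change was 0.04. Slc27a5, the bile acid CoA ligase, had a log2 fold change of 0.33. The peroxisomal side-chain genes Acox2, Amacr, Scp2 and Slc27a2 had log2 fold changes between -0.07 and 0.08. Adjusted p-values of these 6 genes lay between 0.595 and 0.997 (edgeR, Benjamini-Hochberg).

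Of the sinusoidal uptake carriers, 4 of 5 had negative log2 fold changes, between -0.29 and -0.06, and several signs rested on shTbl1xr1 3. Without shTbl1xr1 3 Slc10a1 was at 0.18 and Slco1a1 at 0.23, while Slco1a4 was at -0.15. Slco1a1 was also at 0.11 without shNC 1 and 0.16 without shNC 4, and Slco1a4 at -0.27 without shTbl1xr1 4. Slc10a1, the sodium-dependent taurocholate carrier, had 189.6, 224, 77.5 and 195 CPM in shTbl1xr1, against 201, 156, 170.2 and 188 CPM in shNC. Only shTbl1xr1 3 lay well away from the other 7 libraries, and the log2 fold change was -0.06 ± 0.30 (SE). Slco1b2, Slco1a1, Slco2b1 and Slco1a4 are organic anion transporters of one gene family, in which the division of ambiguous fragments between related genes is uncertain.

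Of the 7 canalicular genes, 6 had positive log2 fold changes over the 8 libraries, but not all in both pairs of shTbl1xr1 libraries. Abcc2 was at 0.70 without the shallow pair and -0.37 without shTbl1xr1 3 and 4. For Abcg2 these values were -0.02 and 0.47. Abcg8, which with Abcg5 forms the sterol exporter of bile, had 49.9, 57.6, 63.7 and 72.4 CPM in shTbl1xr1, against 31.4, 24.5, 18.8 and 32.9 CPM in shNC. The groups did not overlap, and the log2 fold change was 1.18 ± 0.21 (SE), with an adjusted p of 0.127 by edgeR and 5.5e-05 by DESeq2. Its partner Abcg5 had 34.2, 36.6, 80.2 and 73.2 CPM in shTbl1xr1, against 34.3, 20.9, 19.8 and 33.6 CPM in shNC. The shallow pair stayed within or just above the shNC range and libraries 3 and 4 were above it, with a log2 fold change of 1.05 ± 0.33 (SE) and an adjusted p of 0.345 (edgeR, Benjamini-Hochberg). Abcg5 was at 1.5 without the shallow pair and 0.38 without shTbl1xr1 3 and 4. The pair lies head to head on chromosome 17, with RefSeq starts 110 bases apart, so the Abcg8 window shown above also contains the Abcg5 start, at base 141. The 2 annotated genes overlap by 6710 bases with 82 shared exon bases, and these fragments cannot be assigned without strand.

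Abcb11, the bile salt export pump, had 289, 428, 599 and 536 CPM in shTbl1xr1, against 300.5, 345, 274 and 273 CPM in shNC. Libraries 2, 3 and 4 were above every shNC library and library 1 was not, with a log2 fold change of 0.63 ± 0.24 (SE) and an adjusted p of 0.405 (edgeR, Benjamini-Hochberg). It was at 0.93 without the shallow pair and 0.26 without shTbl1xr1 3 and 4. The length the authors' tables give for Abcb11 was 1772 and 1598 bases in the shallow pair, against 4359 to 4897 bases in the other 6 libraries, a length that RSEM weights by the estimated share of each isoform. Abcb4, the phospholipid floppase, had a log2 fold change of 0.32, Abcg2 of 0.25, Abcc2, which exports conjugated organic anions, of 0.26, and Atp8b1, a phospholipid flippase, of -0.21.

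The genes listed here as basolateral efflux included Abcc3 and Abcc6 at 125 and 78.9 CPM in shTbl1xr1, against 113 and 82.7 CPM in shNC. Abcc4 and Slc51b, in the same list, were at a few CPM. Slc51b, a subunit of the organic solute transporter, had 3.5, 4.56, 14.2 and 2.58 CPM in shTbl1xr1, against 2.58, 3.63, 0.365 and 1.81 CPM in shNC. The groups overlapped, with shTbl1xr1 3 far above the other 7 libraries, and the log2 fold change was 1.59 ± 0.69 (SE), with an adjusted p of 0.425 (edgeR, Benjamini-Hochberg). Without shTbl1xr1 3 the log2 fold change was 0.73. Abcc3, Abcc4 and Abcc6 had log2 fold changes of 0.15, 0.44 and -0.06.

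The hepatic receptor of FGF15 had small negative log2 fold changes. Fgfr4 had 28.4 ± 2.78 CPM in shTbl1xr1 and 30.9 ± 3.08 CPM in shNC (SD, n = 4 each). Its log2 fold change was -0.12 ± 0.14 (SE). Its co-receptor Klb had 11.4, 7.32, 10.9 and 19.2 CPM in shTbl1xr1, against 14.7, 17.8, 11.8 and 17.7 CPM in shNC, a log2 fold change of -0.33 ± 0.28 (SE). Both sets overlapped, and the adjusted p-values were 0.721 and 0.610 (edgeR, Benjamini-Hochberg).

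**Figure D3:**
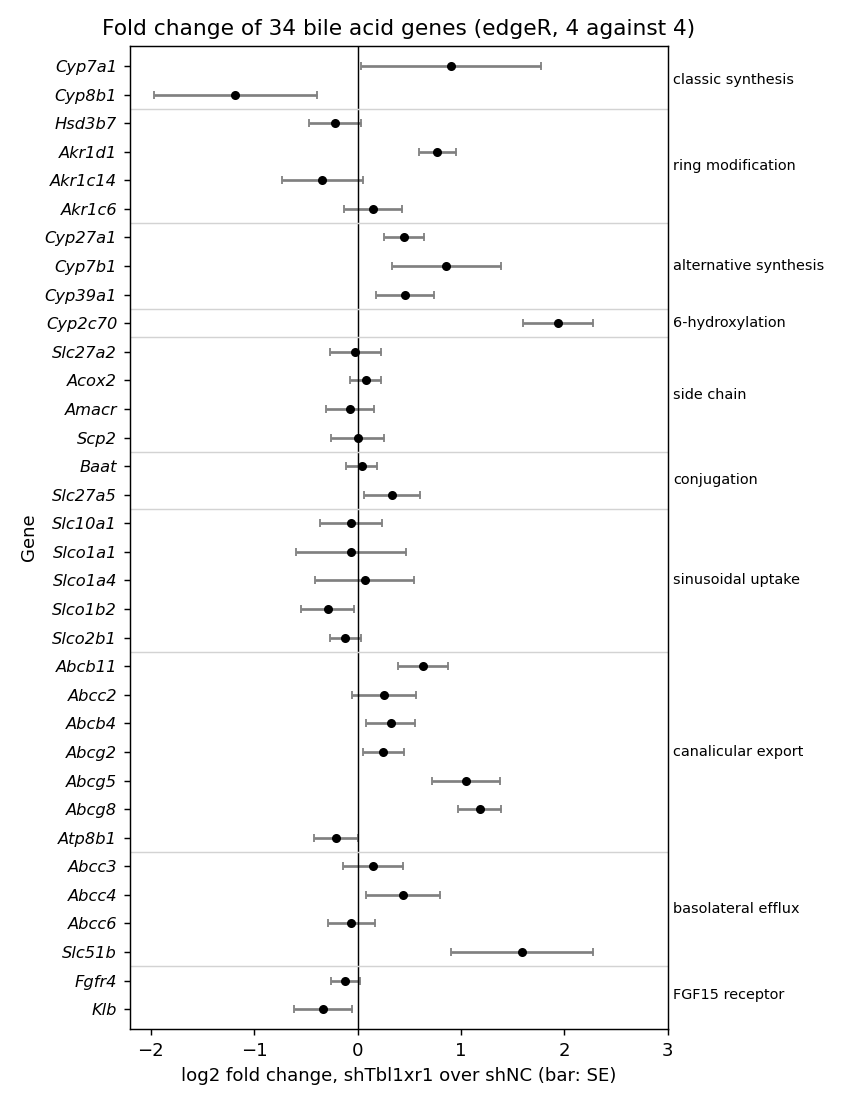
Log2 fold change of each member, shTbl1xr1 over shNC (points), with its SE (bars), grouped by role from top to bottom. Cyp2c70 and Slc51b lie farthest to the right, at 1.94 and 1.59, and Cyp8b1 farthest to the left, at -1.18.

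Among 20 regulators of bile acid genes, 0 passed the threshold in either direction (edgeR, Benjamini-Hochberg), with 9 positive and 11 negative log2 fold changes. Nr1h4 had a log2 fold change of -0.15. Nr0b2 had 46.6, 64.2, 19.6 and 9.42 CPM in shTbl1xr1, against 23.3, 13.6, 18.9 and 11.9 CPM in shNC. Nr0b2 was high only in the shallow pair, and its log2 fold change was 1.03 ± 0.52 (SE). The 3 with the smallest p were Foxa1, Foxa2 and Cebpa, transcription factors of the hepatocyte, at 0.58, 0.66 and 0.74 on the log2 scale. Of 31 other bile acid genes, 24 were tested and 0 passed, and the 3 with the smallest p were Slc51a, the partner of Slc51b (1.97, from 4 to 16 counts a library), Cyp3a11 (0.70) and Akr1c20 (-0.57). Fgf15, an intestinal hormone, was at 0 counts in every library.

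One shTbl1xr1 library held many of the extreme values. Library 3 was the lowest of the 8 libraries in 14 members, or 41.2%, where it was the lowest in 11.5% of all genes. These were Cyp7a1, Cyp8b1, Cyp7b1, Slc10a1, Slco1a1, Slco1b2, Slco2b1, Baat, Slc27a5, Slc27a2, Amacr, Hsd3b7, Akr1c14 and Scp2, which include 4 of the 5 uptake carriers. It was the highest in 6 members (17.6%, beside 13.6% of all genes), which were Abcb11, Abcb4, Abcc3, Abcc4, Slc51b and Abcg5. Library 4 was the highest in 10 members (29.4%, beside 17.7% of all genes). Marker sums of other cells differed between these libraries. The 12 cholangiocyte markers summed to 259 CPM in shTbl1xr1 3 and 58.8, 74.4 and 82.2 CPM in shTbl1xr1 1, 2 and 4, against 51.0 to 137 CPM in shNC, none being at 0 in all libraries. The 13 macrophage markers summed to 340.2 to 892 CPM in shTbl1xr1 and 660.0 to 1059 CPM in shNC, with the shallow pair lowest. The 11 endothelial markers summed to 183 to 372 CPM in shTbl1xr1 and 308 to 359 CPM in shNC, again lowest in the shallow pair. The 11 stellate markers summed to 187, 186, 561 and 315 CPM in shTbl1xr1 1 to 4, against 304 to 529 CPM in shNC, and the 14 hepatocyte markers to 88757 to 137712 CPM and 82937 to 111587 CPM. Sums of the members, the regulators and the hepatocyte, cholangiocyte, macrophage, endothelial and stellate markers overlapped between the groups. So did those of the neutrophil, red blood cell, female-biased and sex chromosome lists. Sums of the other bile acid genes, the lymphocyte markers and the male-biased genes did not overlap. Among single genes, 7.25% did not, in one direction or the other. The 31 other bile acid genes summed to 7044 to 9409 CPM in shTbl1xr1 and 4825 to 6593 CPM in shNC. Most of this sum was Cyp3a11, at 4926, 6675, 7936 and 6981 CPM in shTbl1xr1 and 4596, 3947, 3038 and 4747 CPM in shNC. The 24 tested genes of that list had 13 positive and 11 negative log2 fold changes, with a median of 0.07. The 10 lymphocyte markers, of which 3 were tested, summed to 2.71 to 3.94 CPM in shTbl1xr1 and 3.95 to 5.32 CPM in shNC. These sums are low, and the groups almost touched, at 3.94 and 3.95 CPM. The 12 male-biased liver genes summed to 7111 to 17559 CPM in shTbl1xr1 and 3039 to 5827 CPM in shNC without overlap, and 11 of 12 had positive log2 fold changes, none past the threshold (edgeR). Of 12 female-biased genes 3 were tested, with 1 positive and 2 negative log2 fold changes. Cyp2b9 was lower, with a mean of 0.159 CPM in shTbl1xr1 and 14 CPM in shNC (adjusted p = 0.0427, edgeR, Benjamini-Hochberg). The 12 female-biased genes summed to 10.1 to 97.0 CPM in shTbl1xr1 and 19.5 to 48.6 CPM in shNC, with overlap. The part of these lists in the differences above was not tested. In bulk liver, fewer cells of a type and less RNA per cell cannot be told apart.

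The difference from shNC also varied with gene length in the shallow pair. Across the 34 members, Spearman's rho between length and the pair's difference was -0.54 in shTbl1xr1 1 and 2 and 0.22 in shTbl1xr1 3 and 4, beside -0.53 and 0.25 across all 13908 tested genes, which share the same libraries. Shorter members stood higher in the shallow pair, and all genes did likewise. Without the shallow pair, 0 members passed the threshold (edgeR, Benjamini-Hochberg), where 0.0478% of all genes did, and Cyp2c70, Abcg8 and Akr1d1 had log2 fold changes of 1.88, 1.34 and 0.79. Without shTbl1xr1 3 and 4, 8 members were called higher and 3 lower (Klb, Abcc6 and Atp8b1), where 42.6% of all genes were called (21.5% higher and 21.1% lower), and Cyp2c70, Abcg8 and Akr1d1 were among those higher, at 1.99, 1.0 and 0.74.

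**Figure D4:**
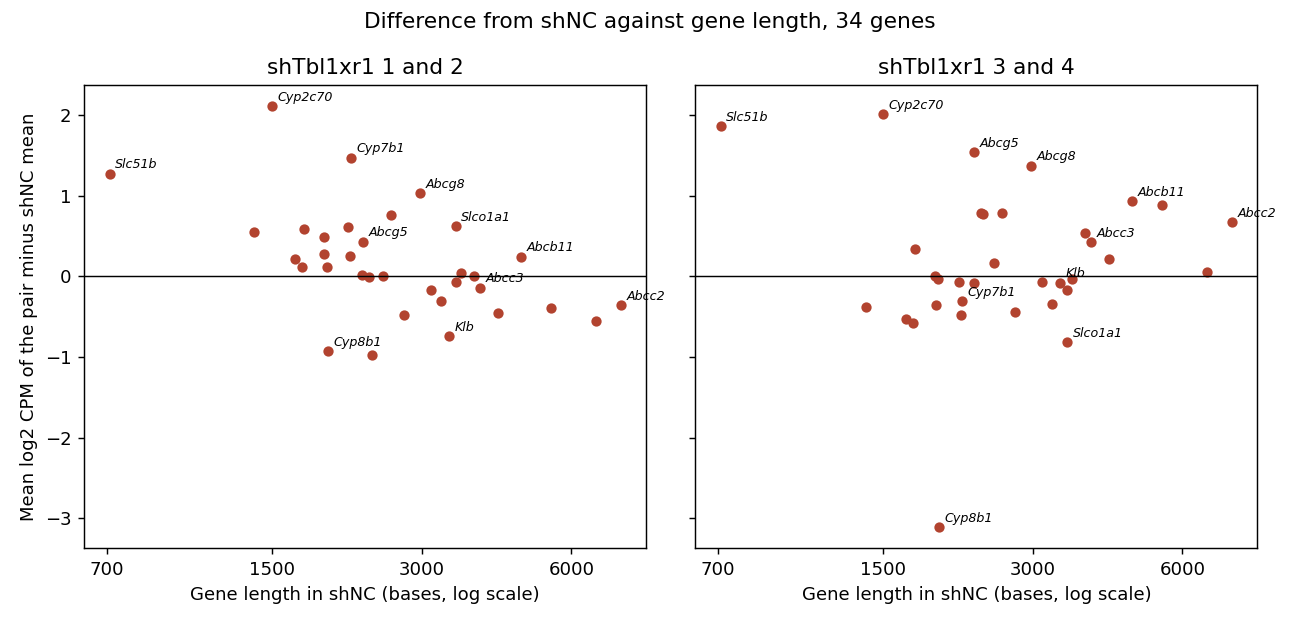
Mean log2 CPM of a pair of shTbl1xr1 libraries minus the shNC mean (y axis) against gene length in shNC in bases, on a log axis, for the 34 members, with shTbl1xr1 1 and 2 at left and shTbl1xr1 3 and 4 at right. Longer genes are lower in the left panel, with rho -0.54, and the right panel has rho 0.22.

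The members differ widely in level. Per length, in the authors' deposited TPM, Scp2 was the most abundant member in both groups, at 1389.7 ± 309.9 TPM in shTbl1xr1 and 2006 ± 125 TPM in shNC (SD, n = 4 each), and Abcc4 the least, at 0.578 ± 0.467 TPM and 0.530 ± 0.136 TPM. On the log2(TPM + 1) scale with limma, the median over all genes was -0.34 and that of the members -0.42, so the scale lowers shTbl1xr1 values as a whole. Cyp2c70 stayed positive there at 1.40, Abcg8 at 0.57 and Akr1d1 at 0.22, none past the threshold. In TPM the groups overlapped for Abcg8 and Akr1d1, unlike in CPM. Akr1d1 was at 35.9 and 35.7 TPM in the shallow pair, below every shNC library (41.6 to 57.0 TPM). Abcg8 was at 10.8 and 9.52 TPM in the shallow pair, within the shNC range (9.18 to 15.5 TPM).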

How the data were processed

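Total RNA of 8 mouse liver libraries was measured. Per the submitters' processing notes, STAR, RSEM and DESeq2 1.30.1 were used with the build mm10, and no options, strand setting or annotation release could be read from them. The deposited expected counts, the authors' RSEM estimates of fragments per gene, were rounded to whole numbers. The deposited TPM and FPKM, per the file headers, scale these counts by length and library. TPM was used for levels between genes, and FPKM was not used. Gene lengths are as deposited by the authors, in bases. Symbols and coordinates came from GENCODE M21 on GRCm38 (55141 of 55401 IDs matched).

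Genes were filtered by filterByExpr, scaled by TMM and tested in edgeR 4.0.16 (R 4.3.3) by the quasi-likelihood test, 4 shTbl1xr1 against 4 shNC libraries, adjusted by Benjamini-Hochberg over 13908 genes. Log2 levels used a prior count of 2. Settings compared included DESeq2 1.42.0, limma 3.58.1 and sva 3.50.0, other scalings, no filter, and leaving out libraries. Only the main edgeR fit was tested on simulated data, with 200 changed genes. These simulated counts did not include the length trend of the shallow pair. The members and lists were chosen with earlier results of these data known. Named genes are the 12 members with the smallest p and 9 central pathway genes, plus the 3 with the smallest p of each other list, Nr1h4 and Nr0b2. Other members are given by value and role. Within each group, no pair of libraries agreed within sampling noise. Sequences are from RefSeq. Depth was 10728583 to 36720879 counts a library, so low levels carry more counting error in the shallow pair.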

Additional observations from a re-analysis of the deposited data

Results flagged for a closer look

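Of 70 groups of 4 libraries checked, 3 held a library far from the other 3 relative to the group's range, where chance flags about 1 in 20 groups. Slc51b was highest in shTbl1xr1 3, at 14.2 CPM, against 2.58 to 4.56 CPM in the other shTbl1xr1 libraries. Cyp39a1 was lowest in shNC 3, at 13.6 CPM, and Acox2 was lowest in shNC 1, at 151 CPM.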

How the results depend on the processing

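Among the members, 0 were called by edgeR with TMM scaling. DESeq2 called 3 higher, 1 surrogate variable 1 (Abcg8), removal of the length trend 1 (Abcg8), and the setting without shTbl1xr1 3 and 4 called 8 higher and 3 lower; leaving out 1 replicate at a time called 0 in every case. The member median of 0.12 became -0.15 with libraries scaled by size alone and -0.42 on the deposited TPM. Over all genes, 6 were called higher and 1 lower; the counts higher were 3 by size alone, 248 by DESeq2, 12 without a filter, 38 with 1 surrogate variable, 3073 without shTbl1xr1 3 and 4, 1 on TPM, and 32 with the length trend removed, and 0 to 28 leaving out 1 replicate. The counts lower were 47 by DESeq2, 0 by limma-voom, 4 with 1 surrogate variable, 0 with the deeper libraries only, 3021 without shTbl1xr1 3 and 4, 0 on TPM, and 3 with the length trend removed, and 0 to 6 leaving out 1 replicate. The cause was not tested. Tbl1xr1 at -2.07 (adjusted p = 0.290, edgeR) passed with DESeq2 (-2.13, adjusted p = 0.00862), with 1 surrogate variable (-1.67, adjusted p = 0.00739) and without shTbl1xr1 3 and 4 (-3.88, adjusted p = 6.62e-05). Over the 21 alternatives, 12 members kept their sign and 22 turned somewhere. TPM and length-trend settings were chosen after seeing the data.

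The replicate numbers are not said to pair samples and were not taken as pairs. Over the tested genes, deviations of same-numbered libraries from their group means correlated at 0.38, -0.07, 0.30 and 0.12. By these deviations, not every library correlated best with its own number. With the replicate block, 4 genes were called higher and 1 lower, 0 of them members, and the member median was 0.06. With 4 libraries a group and the shallow pair at 10895508 and 10728583 counts, low genes such as Slc51b are limited by depth.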
